A study of Homo sapiens with 6 samples.

Results

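THP-1 is an established line of human monocytic leukaemia cells. Of 58395 counted genes, 30 had no untreated read and 15 or more reads after monensin, with some in every monensin library. They were chosen by raw read count, with 0 in each of the 3 untreated libraries, 1 or more in each of the 3 monensin libraries, and a sum of 15 or more over the latter. Of the 30, 17 are protein-coding genes, 6 are long intergenic non-coding RNAs (lincRNAs), 3 are annotated as antisense, 2 are processed pseudogenes and 2 are small structural RNAs. The untreated cells received nothing, and no vehicle is named for them. The treated cells received 1 µM monensin, an ionophore that exchanges sodium for protons across membranes, for 16 h. Both groups are THP-1 cells grown in RPMI 1640 with serum, and nothing in the labels says that the 3 libraries of a group came from separate cultures, so their spread may be technical. Between 22975888 and 25710513 reads were assigned to genes in each library. All 12 myeloid markers examined were detected in both groups, with summed levels of 2349 to 2432 CPM (read counts scaled to a common library size) untreated and 2207 to 2283 CPM with monensin. Within that sum 6 markers were raised, 4 lowered and 2 not called by edgeR, beside 34.1% raised and 33.7% lowered of all genes tested. LYZ, for lysozyme, went from 790 to 292 CPM, CEBPA from 499 to 798 and CD14 from 0.48 to 2.37.

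A gene with no read is not shown to be silent. A short-read library samples a small part of the RNA of many cells, so a rare transcript can be missed by chance, and bulk RNA cannot tell a few cells that express a gene well from many that express it weakly. A read also has to be assigned to a gene: reads that align to several places, or that lie in exons of more than one gene, are commonly left out of the count, while a read from the intron or beyond the end of one gene is credited to any other gene annotated there. The counts of the 30 genes are therefore given with the genes that lie beside them, around them or share sequence with them.

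Because the counts chose the genes, the contrast between the groups is a description here and carries no test. Over the untreated group, 0 reads allow up to 3 counts, or 0.0411 CPM, as a 1-sided 95% limit. Against that limit the monensin level of the 30 genes was 4.93-fold higher for the weakest and 25.3-fold higher for the strongest, taking each monensin count as measured. Counting error in the monensin reads is not part of these folds. The limit holds for a gene named beforehand. It does not allow for the choice of these genes by their 0 untreated reads, so the folds are not 95% bounds. This limit and the intervals below cover counting error only. The level of the 30 genes with monensin was low, from 0.201 to 1.04 CPM on average. The median sum was 18 reads, and 18 of the 30 had 19 or fewer. Together they held 270, 240 and 253 reads in the 3 monensin libraries, or 0.00109%, 0.000993% and 0.0011% of the gene counts.

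**Figure D1:**
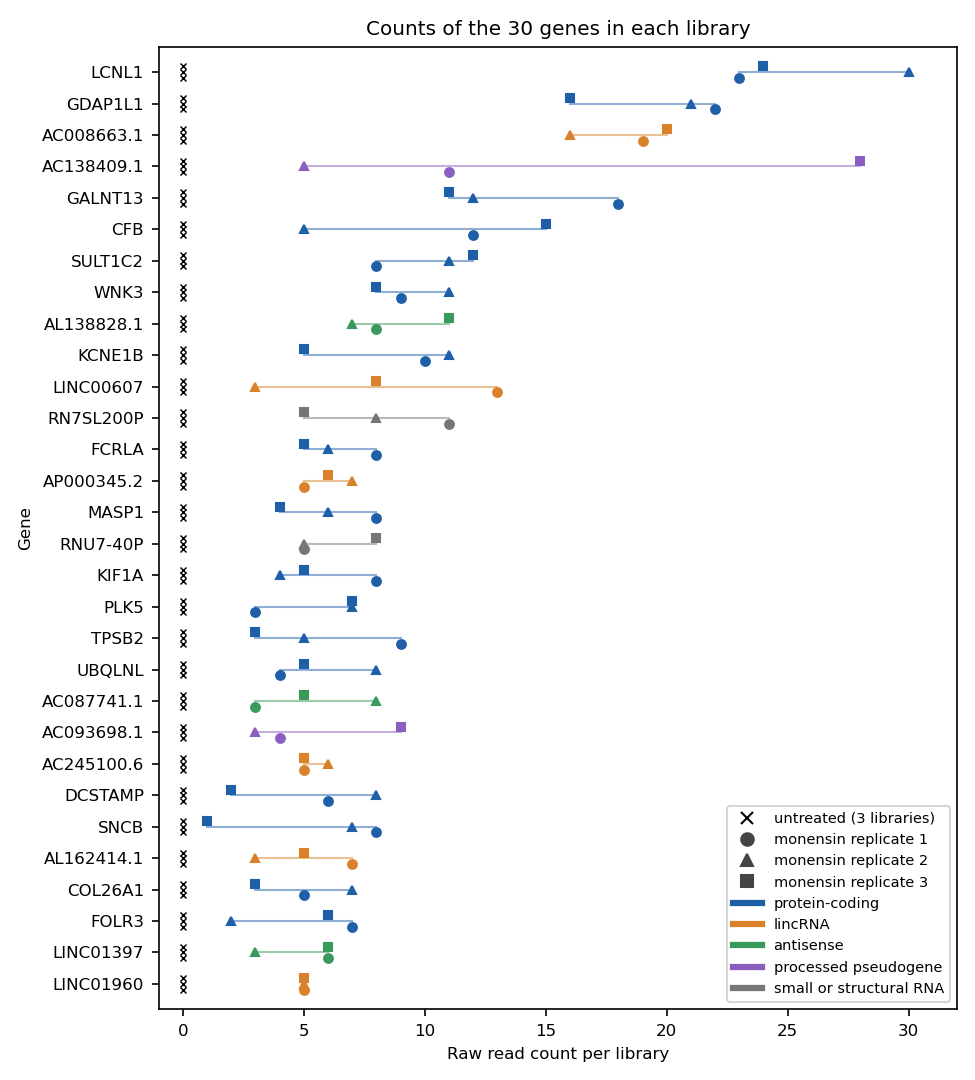
Raw read counts of the 30 genes (vertical axis) in each library (horizontal axis, reads). Crosses are the 3 untreated libraries, all at 0, and filled symbols the 3 monensin libraries, coloured by gene type with a line from lowest to highest. LCNL1 reaches 30 reads in 1 library, whereas 18 of the 30 genes have 19 or fewer over all 3.

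Of 30282 genes at 0 in all untreated libraries, 27164 had no read with monensin either, 263 were detected in each monensin library, and the 30 (0.0991%) reached the sum of 15. The reverse count, with the same limits, gave 5 of 29081 genes at 0 with monensin (0.0172%). These 5 were ANGPTL2, LINC01122, and MTCO1P2, MTCO2P22 and MTND4LP30, which are pseudogene copies of mitochondrial genes. Lowering the limit does not turn the order: with a sum of 3 or 4 there were 88 genes in the monensin direction and 46 in the reverse direction, and with 5 to 9 there were 123 and 27.

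**Figure D2:**
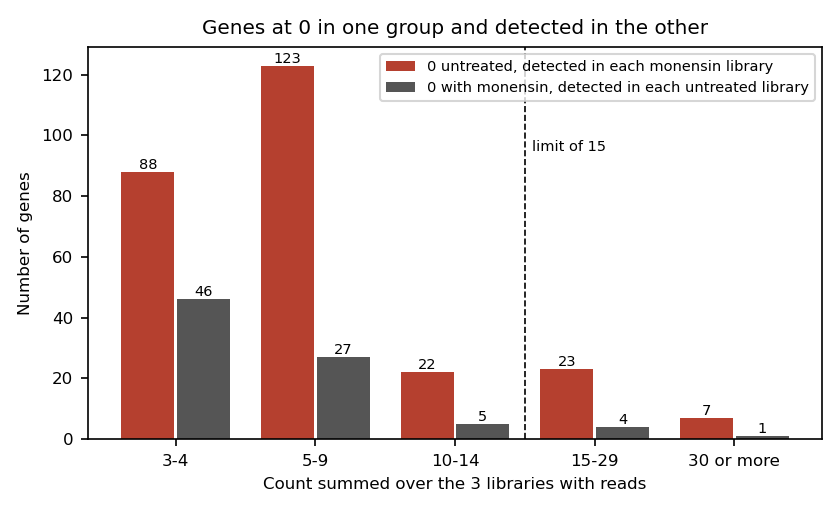
Number of genes (vertical axis) at 0 in one group and detected in each library of the other, by their summed count (horizontal axis, reads). Red bars are genes at 0 untreated, grey bars genes at 0 with monensin, and the dashed line marks the limit of 15, beyond which there are 23 and 7 genes against 4 and 1.

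The limits divide genes that differ by 1 read. Just inside, COL26A1, FOLR3, AL162414.1, LINC01397 and LINC01960 had 15 reads. Just outside, AC011944.1 and TREML3P had 14. A further 26 genes met every limit apart from a single untreated read, and the largest of these, the cation channel gene TRPM8, had 585 reads with monensin. FRG1EP had 27, 0 and 2 reads with monensin and is left out because of the 0. One library holds most of its reads.

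Protein-coding genes made up 56.7% of the 30, against 34.1% of all counted genes and 14.6% of genes at 0 in the untreated libraries. Among other genes with a like total of 15 to 77 reads over the 6 libraries they made up 27.2%. Pseudogenes were 6.67% of the 30 and 26% of all genes. By symbol, 8 carry only a clone-based name and 3 a LINC number. The median exonic length was 3114.5 bases, against 974 over all annotated genes and 4255 over the genes tested for differential expression. Per kilobase of exon the mean monensin level ran from 0.0137 CPM for KIF1A to 3.84 for RNU7-40P, with a median of 0.102.

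LCNL1, which encodes a lipocalin-like protein of a family of small secreted carriers, had the most reads: 23, 30 and 24 in monensin replicates 1 to 3. The sum of 77 has a 95% Poisson interval from 60.8 to 96.2, and the measured count, not its lower bound, gives the 25.3-fold above. The 3 libraries lay close together, with a mean of 1.04 ± 0.152 CPM (SD, n = 3). LCNL1 lies on chromosome 9 from 136981904 to 136986410 on GRCh38, plus strand. PTGDS, the lipocalin-type prostaglandin D synthase, ends 162 bases upstream of it on the same strand. AL807752.7 is annotated on that strand across parts of both and has 0 reads in all 6 libraries. Of the annotated exon bases of LCNL1, 8.76% lie in same-strand exons of another gene. PTGDS had 1 read over the untreated libraries and 26, 29 and 14 with monensin, a ratio of 68.0 with a 95% counting interval from 11.8 to 2725. It missed the limits above by that 1 read, and it was raised by edgeR's quasi-likelihood test (adjusted p = 1.68e-06). Another lipocalin gene, LCN12, had 13 reads untreated and 44 with monensin and was also raised (adjusted p = 0.00116 by edgeR, with a log2 fold change of 1.71 and SE of 0.39). Of the other 7 lipocalin genes examined, LCN15 had 1 read with monensin and the rest had 0 in all 6 libraries.

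CFB encodes complement factor B, the protease of the alternative pathway. Its monensin counts were 12, 5 and 15, and replicate 2 was the low one. Of its annotated exon bases, 45.5% lie in same-strand exons of another gene. AL645922.1, which spans parts of both C2 and CFB and has 0 reads in all 6 libraries, holds every 75-base stretch (window) that CFB shares, 39.7% of its windows. C2, the neighbouring and related complement protease gene, overlaps CFB on the same strand and was raised from 4.12 ± 0.261 to 14.4 ± 0.847 CPM (SD, n = 3; adjusted p = 1.35e-10 by edgeR). MASP1, a protease of the lectin pathway, had 8, 6 and 4 reads, while MASP2 had 6 reads untreated and 7 with monensin. The RefSeq promoter of CFB (GRCh38.p14, plus strand, chr6:31945845-31946144, most of it before the start) is shown because it is the member promoter that holds TATAAA, in capitals, beginning 30 bases before the start.

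CFB promoter: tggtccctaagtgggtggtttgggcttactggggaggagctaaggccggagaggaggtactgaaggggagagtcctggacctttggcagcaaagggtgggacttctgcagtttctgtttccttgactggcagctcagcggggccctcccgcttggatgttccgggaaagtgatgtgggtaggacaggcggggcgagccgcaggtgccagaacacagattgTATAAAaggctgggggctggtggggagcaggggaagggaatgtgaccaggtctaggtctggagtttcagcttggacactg

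In the GRCh38 annotation KCNE1B is a copy of KCNE1, the accessory subunit of a cardiac and epithelial potassium channel. Whether KCNE1B is a separate gene in these cells was not tested. Its counts with monensin were 10, 11 and 5. Of the 3642 distinct 75-base windows in its annotated transcripts, 3049 (83.7%) also occur in KCNE1, and the coding regions of 387 bases differ at 2 bases. KCNE1 itself had 5, 4 and 6 reads in the untreated libraries and 100, 115 and 99 with monensin, and the groups did not overlap. By edgeR it was raised (adjusted p = 2.48e-10, log2 fold change 4.33, SE 0.23). Which of these near-identical copies a read came from is uncertain, and KCNE1B reads cannot be told apart from misassigned KCNE1 reads. A related subunit gene, KCNE3, was raised from 33.0 to 48.0 CPM (SE 0.06 on a log2 fold change of 0.54), and KCNE5 was not called (log2 fold change -0.15, SE 0.22, adjusted p = 0.570).

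Enzymes and kinases came next. GALNT13, which starts mucin-type O-glycans in the Golgi and is best known from neural tissue, had 18, 12 and 11 reads. SULT1C2, a cytosolic sulfotransferase, had 8, 11 and 12. WNK3, a kinase that regulates chloride cotransporters, had 9, 11 and 8. All 3 genes were detected at similar depth in each monensin library. Their relatives with measurable levels went both ways, beside 34.1% raised and 33.7% lowered of all genes tested. Of 10 tested GALNT genes, 7 were lowered, GALNT2 and GALNT11 not with total counts (adjusted p = 0.0539 and 0.168), and GALNT16 was raised from 64 to 218 reads. Of 5 tested sulfotransferases 4 were raised, with SULT2B1 going from 54 to 185 reads, and SULT1B1 was lowered from 134 to 41. The calls of SULT1A2 and SULT4A1 were lost with DESeq2 (adjusted p = 0.138 and 0.207). That of SULT1A2 was also lost without monensin replicate 2 (0.0869) or 3 (0.153) or untreated replicate 1 (0.0765) or 2 (0.171). That of SULT4A1 was also lost without monensin replicate 1 (0.0619) or untreated replicate 1 (0.0922). Of the other WNK kinases, WNK4 was raised and WNK1 and WNK2 were lowered. PLK5, a polo-like kinase gene, had 3, 7 and 7 reads. Among the other polo-like kinases, PLK1, PLK2 and PLK4 were lowered and PLK3 was raised, the last not with DESeq2 (adjusted p = 0.0960).

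Another set is known from neurons. GDAP1L1, a relative of the mitochondrial fission factor GDAP1, had 22, 21 and 16 reads, the second highest sum of the protein-coding genes, and GDAP1 itself was lowered (adjusted p = 8.9e-06 by edgeR, log2 fold change -0.67, SE 0.09). KIF1A, a kinesin that carries synaptic vesicle precursors, had 8, 4 and 5 reads over 16695 exonic bases. SNCB, which encodes beta-synuclein, had 8, 7 and 1, so replicate 3 barely met the rule. Neuron and glia markers as a list did not include any of the 30. Only 4 genes of the list had no untreated read, so no more could have qualified. Of its 12 genes 3 were tested: OLIG2 (10.0 to 15.8 CPM) and SYP (1.73 to 3.73 CPM) were raised, and SNAP25 had 43 reads untreated and 30 with monensin and was not called. Over all genes tested, 34.1% were raised. TUBB3 had 9 and 3 reads, and SYT1, NEFL and ELAVL3 had 0 in all 6 libraries. The summed level of the list was 12.5 to 12.8 CPM untreated and 19.3 to 20.7 CPM with monensin, with OLIG2 most of it, and its part in these counts was not tested.

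Several of the 30 are known from particular blood or immune cells. FCRLA, an Fc receptor-like protein found inside B cells, had 8, 6 and 5 reads. TPSB2, a mast cell tryptase, had 9, 5 and 3. FOLR3, a secreted folate-binding protein of neutrophil granules, had 7, 2 and 6. DCSTAMP, needed for the fusion of macrophages and osteoclasts, had 6, 8 and 2. OCSTAMP, the partner of DCSTAMP in fusion, had 2 reads with monensin and 0 untreated. Of the windows of TPSB2, 50.8% also occur in TPSAB1, the neighbouring tryptase, so its count is uncertain. TPSAB1 had 1 read untreated and 2 with monensin, and where reads of shared stretches went was not tested. FOLR2, the folate receptor of macrophages, was raised from 2.29 to 4.45 CPM (SE 0.15 on a log2 fold change of 0.96). On the list of 12 macrophage maturation markers 4 genes were tested. Of these 3 were raised, beside 34.1% of all genes tested, and CD36 was not called. MARCO went from 1.70 to 5.46 CPM, ADAMDEC1 from 0.0805 to 0.524 and CD86 from 0.272 to 0.526. Of the genes not tested, MMP9 had 5 reads untreated and 17 with monensin, and CD80 had 6 and 14. MRC1 had 0 and 3, and CHIT1 had 0 and 4, all 4 in monensin replicate 1. CD163 had 7 reads in each group, MSR1 had 11 and 8, FABP4 had 2 and 1, and CCL18 had 0. That list summed to 43.6 to 47.9 CPM untreated and 49.1 to 55.1 CPM with monensin. CD36, which was not called, made up most of that sum, with means of 43.8 and 45.4 CPM. The 10 B cell markers summed to 36.9 to 41.6 CPM untreated and 29.8 to 31.9 CPM with monensin. BANK1 made up most of that sum, with means of 31.8 and 19.2 CPM. Of 6 tested, 2 were raised and 2 lowered, and BLK and VPREB1 were at 0 in all 6 libraries. The 10 hepatocyte markers, of interest for the complement genes, had 5 members at 0 in all 6 libraries and summed to 4.41 to 4.85 CPM untreated and 5.75 to 6.93 CPM with monensin. Of the 4 tested, TF, for transferrin, was raised from 0.369 to 1.76 CPM, and APOA1, SERPINA1 and CPS1 were not called. What part such cell programmes had in the counts was not tested.

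The remaining protein-coding genes were UBQLNL, a ubiquilin-like gene with 4, 8 and 5 reads, and COL26A1, a collagen gene with 5, 7 and 3. UBQLN1, UBQLN2 and UBQLN4 were all lowered, with log2 fold changes from -0.38 to -0.28. Over 16 families of relatives, chosen by symbol after the 30 genes were known, 37 of 76 genes could be tested. Of these 14 were raised and 19 lowered. Over all 16542 genes tested, 34.1% were raised and 33.7% lowered (67.8% called in all). None of the 30 was on any of 17 lists of lineage markers, stress response, cytokine, interferon, channel and Notch genes. Only genes at 0 untreated could qualify, and 0.0991% of all such genes were chosen, so absence from short lists carries no information. The list for ATF4, the factor of the integrated stress response, had 1 such gene among 20, and all 19 tested genes on it were raised.

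Among the non-coding genes, AC008663.1 stood out. This lincRNA of 455 exonic bases lies on chromosome 5 from 173562478 to 173573199 and had 19, 16 and 20 reads. Per kilobase its level of 1.64 was the highest of the 30 after that of RNU7-40P. None of its windows occurs in a transcript of another gene, and no gene overlaps it. LINC00607 had 13, 3 and 8 reads, AP000345.2 had 5, 7 and 6, AL162414.1 had 7, 3 and 5, and LINC01960 had 5 in each. AL138828.1, annotated antisense to the phosphodiesterase gene PDE7B, had 8, 7 and 11 reads while PDE7B was lowered (log2 fold change -0.60, SE 0.14, adjusted p = 0.00105 by edgeR).

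AC138409.1, a processed pseudogene, had 11, 5 and 28 reads, and monensin replicate 3 alone held most of them. Without that library its mean would rest on 11 and 5 reads. About 1 window in 3 (34.4%) occurs in other transcripts, chiefly in AC138951.1, which had 6 reads untreated and 4 with monensin. The gene on its opposite strand, AC138409.2, was lowered from 311 to 192 reads. In all, 8 of the 30 genes had a highest monensin count at least 3 times the lowest. The other pseudogene, AC093698.1, had 4, 3 and 9 reads and no shared window.

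LINC01397, annotated as antisense, had 6, 3 and 6 reads. The gene downstream, UBL4B, had 1 read untreated and 21 with monensin, a ratio of 20.7 with a 95% counting interval from 3.33 to 856. Promoters of 16 of the 30 genes matched RefSeq by symbol. They were searched on both strands for 6 motifs, and the share of all 35116 promoters of the same length that hold each is given beside the count. The composite element of C/EBP and ATF factors, TGATGNAA, was found in 2 of 16 (12.5%), LINC01397 and FCRLA, against 3.62% of all promoters. The AP-1 motif, spelled TGANTCA, was also found in 2, LINC00607 and UBQLNL, against 7.71%. The TATA box, spelled TATAAA, was in 1 of 16, against 11.5%. The other 3 motifs were in 0 of 16. They were the core of lysosomal gene promoters, TCACGTGA, in 0.98% of all promoters. The E-box within that core, spelled CACGTG, was in 7.26%. The cyclic AMP response element, TGACGTCA, was in 1.85%. A match of these letters is not evidence of binding. The promoters with TGATGNAA or its reverse complement in capitals are shown because this element is the one known from the stress response list above. That of LINC01397 lies at chr1:110082438-110082737 and that of FCRLA at chr1:161706979-161707278, both GRCh38.p14 and plus strand. The match begins 4 bases before the start in LINC01397 and 115 before it in FCRLA.

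LINC01397 promoter: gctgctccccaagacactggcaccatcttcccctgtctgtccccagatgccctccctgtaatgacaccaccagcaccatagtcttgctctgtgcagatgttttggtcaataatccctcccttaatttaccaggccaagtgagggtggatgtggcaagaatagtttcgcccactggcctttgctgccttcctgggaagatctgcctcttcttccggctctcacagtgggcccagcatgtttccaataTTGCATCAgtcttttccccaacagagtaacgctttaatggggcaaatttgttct
FCRLA promoter: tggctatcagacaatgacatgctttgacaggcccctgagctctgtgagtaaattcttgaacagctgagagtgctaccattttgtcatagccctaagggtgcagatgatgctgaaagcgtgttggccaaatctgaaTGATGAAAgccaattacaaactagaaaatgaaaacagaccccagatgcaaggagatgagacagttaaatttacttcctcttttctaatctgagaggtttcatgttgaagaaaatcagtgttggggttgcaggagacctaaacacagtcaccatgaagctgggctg

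Both small RNA genes lie inside introns of longer genes. RNU7-40P, annotated as a U7 small nuclear RNA copy, had 5, 5 and 8 reads with monensin. It lies on chromosome 12 from 56352387 to 56352450, inside an intron of STAT2 on the same strand. At 64 bases it is shorter than a 75-base read, as its sequence shows.

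RNU7-40P: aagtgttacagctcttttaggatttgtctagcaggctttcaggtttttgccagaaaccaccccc

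An unspliced 75-base alignment over RNU7-40P extends into STAT2 intron sequence. Where its reads began was not tested. STAT2, a signal transducer of interferon receptors, was raised from 20.3 ± 1.97 to 72.1 ± 1.57 CPM (SD, n = 3; adjusted p = 2.05e-12 by edgeR). RN7SL200P, a 7SL RNA copy of 288 bases, had 11, 8 and 5 reads and lies in an intron of C6orf106 on the same strand. C6orf106 was raised from 212 ± 4.32 to 241 ± 6.94 CPM (adjusted p = 0.000760 by edgeR). No 75-base window of RN7SL200P matches another annotated transcript exactly. Tallied alignments outside any gene's exons made up 8.61% to 8.99% in the untreated libraries and 10.4% to 11.2% in the monensin libraries, without overlap. Their part in the counts of these intronic genes was not tested.

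Genes immediately upstream were examined because the rule did not use them. Of the 30, 8 had a same-strand gene ending within 10 kb before their start. Of these 8 neighbours 5 could be tested, and 2 were raised, PTGDS and SGSH, beside 34.1% of all genes tested. SGSH, a lysosomal sulfatase that degrades heparan sulfate, lies 767 bases upstream of AC087741.1 on chromosome 17. It was raised from 0.70 ± 0.156 to 6.6 ± 0.695 CPM (SD, n = 3; log2 fold change 3.23, SE 0.18, adjusted p = 3.58e-10 by edgeR). AC087741.1 had 3, 8 and 5 reads, and CARD14 on its opposite strand had 0 untreated and 5 with monensin. MTFR2 was lowered (log2 fold change -0.71, SE 0.05), and LRTOMT was not called (adjusted p = 0.251). Both tested genes that contain a member on the same strand, STAT2 and C6orf106, were raised. With so few genes in each class, the share raised cannot be set apart from that of all genes.

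**Figure D3:**
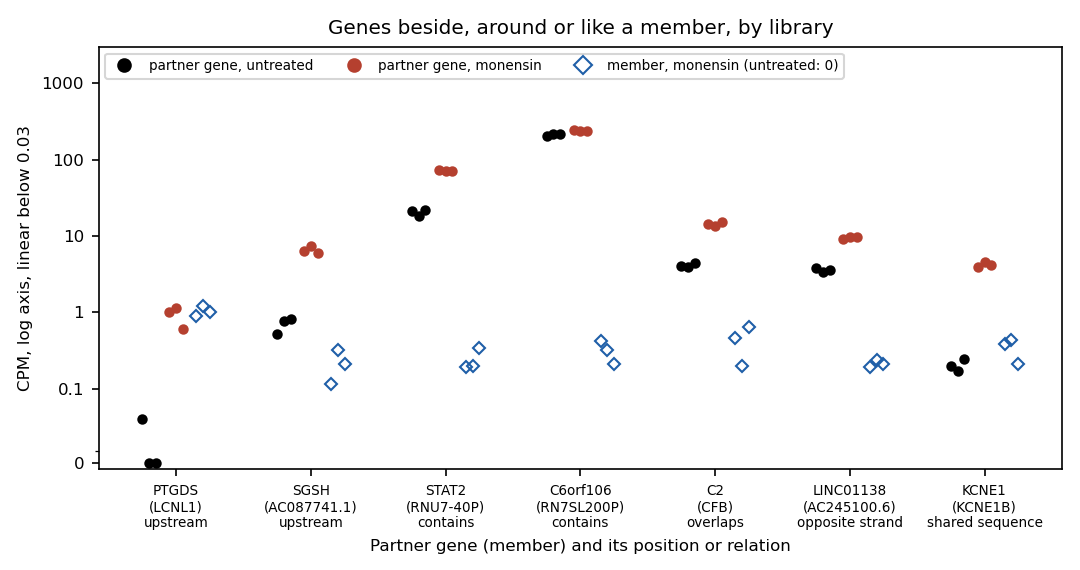
Levels of 7 partner genes and of the member named in brackets (CPM, log axis that is linear below 0.03), 1 point per library. Black and red circles are the partner gene untreated and with monensin, and blue diamonds the member with monensin. The partners PTGDS, SGSH, STAT2, C2, LINC01138 and KCNE1 lie higher in all 3 monensin libraries, C6orf106 by a small step, and LCNL1 alone of these 7 members reaches the monensin level of its partner.

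On the opposite strand, 13 genes overlapped 10 of the 30. Of these 8 had no read in any library and 3 could be tested: LINC01138 was raised, and AC138409.2 and PDE7B were lowered. LINC01138, opposite AC245100.6, had 263 reads untreated and 702 with monensin (adjusted p = 6.77e-09 by edgeR). AC245100.6 had 5, 6 and 5 reads. Of its exon bases 45.0% lie opposite exons of other genes, and 52.1% of its windows occur in other transcripts. The libraries were made with a directional kit, per the labels' protocols. No source used here states the strand setting of the counting, but the counts bear on it. Of 707 genes whose exon bases all lie inside exons of the opposite strand, 411 (58.1%) had reads. Of 1091 genes whose exon bases all lie inside exons of the same strand, 9 had reads. Reads in opposite-strand overlaps were thus kept for each gene, which needs the strand, while reads in same-strand overlaps were left out.

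Shared sequence touched 12 of the 30 genes (40.0%), against 39.8% of all annotated genes and 50.4% of other genes with a like total count. The majority of windows were shared in KCNE1B, AC245100.6 and TPSB2, or 10.0% of the 30, against 11.7% of other genes with a like total. These comparisons are limited to exact matches among annotated transcripts, and RNU7-40P is too short to hold a window.

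**Figure D4:**
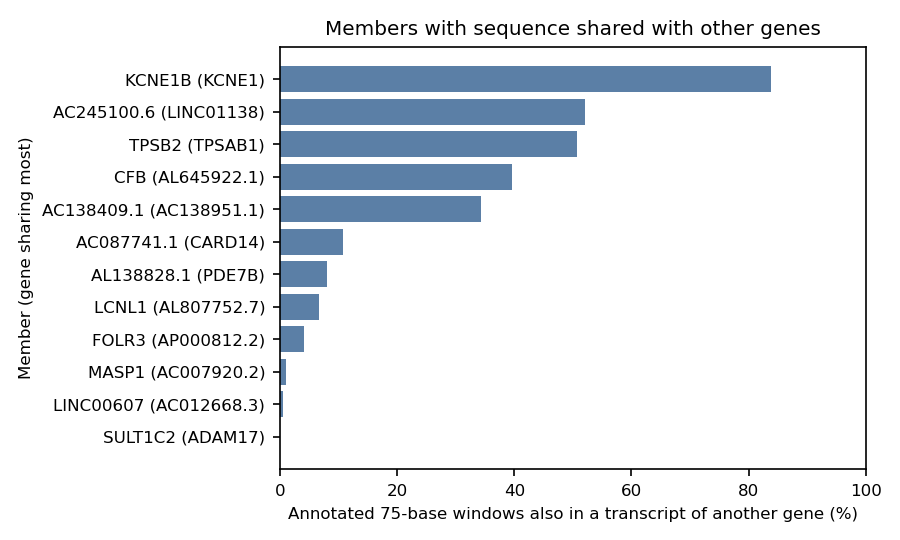
Share of each gene's 75-base transcript windows that also occur in a transcript of another gene (horizontal axis, percent), for the 12 of 30 genes with any. The gene sharing most is in brackets, and KCNE1B stands highest at 83.7%.

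In the authors' deposited table of regulated genes, which holds 2410 beside 58395 counted, 29 of the 30 appear, and AC245100.6 does not. That table compares the same groups whose counts chose the 30, so the overlap is not independent support. For the 29 the log2 fold changes in the authors' deposited table run from 4.71 for COL26A1 to 7.08 for LCNL1. With no untreated read, the size of such a value depends on how zeros are handled. The folds above rest on a limit that does not allow for the choice of the genes. In edgeR's filter on low counts 4 of the 30 passed, which leaves 26 outside any test by that fit.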

How the data were processed

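RNA was sequenced from 3 untreated and 3 monensin samples of THP-1 cells. The authors deposited a table of raw gene counts per library and a list of regulated genes with log2 fold changes. The submitters' processing notes name DESeq2 1.22.2, HTSeq 0.11.1, HISAT2 2.1.0, Trimmomatic 038 and bcl2fastq, and build GRCh38. Which annotation release was counted is not given in the sources used. Tally lines for unassigned reads (19.1% to 22.0% of tallied alignments) were kept out of all totals.

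Gene types, positions and transcripts came from GENCODE 29 on GRCh38, which holds 58275 of the 58395 genes. CPM are counts over totals scaled by TMM factors. Tests across all genes used the edgeR package, version 4.0.16, with R 4.3.3 (quasi-likelihood test, filter by group, treatment as the only term, Benjamini-Hochberg adjusted p under 0.05), which was tested on simulated data. Of the 30 genes 4 passed the filter and entered the fit, and no test result of the 30 is reported, since their counts chose them. Intervals are 95% Poisson, or exact Clopper-Pearson for ratios.

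The genes and lists were chosen with earlier results of these data known. The rule for named genes took the 12 members with the highest sums, the 12 protein-coding and the 3 of each other common type with the highest sums, those at the limits, and genes beside them. The remaining members, the relatives, TRPM8, UBL4B, FRG1EP, the single marker genes and the promoters shown were named after values were seen. Alternatives were other limits, RLE factors, total counts, other filters, DESeq2 1.42.0, a replicate block, an adjusted p under 0.01 and each library left out. Same-numbered libraries deviated from their group means with correlations of -0.119, 0.140 and 0.0414, so the numbers were not taken to pair samples. The values of 1 neighbouring gene are not reported here.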

Additional observations from a re-analysis of the deposited data

How the results depend on the processing

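The number of genes follows the limits. It was 52 with a sum of 10 or more, 7 with a sum of 30 or more, and 56 when 1 read over the untreated libraries was allowed; each of the wider sets held all 30. Leaving out 1 library gave between 30 and 59 genes. The counts were 59, 43 and 46 without untreated replicates 1, 2 and 3, where fewer zeros are required. They were 31, 30 and 31 without monensin replicates 1, 2 and 3, of which 24, 25 and 27 were among the 30. For these last counts the limit was lowered to a sum of 10 over the monensin libraries left. The near-constant number therefore cannot show how many genes the full limit would keep. Scaling counts to the smallest library left 25. The count of raised upstream neighbours fell from 2 to 1 under the stricter filter, which removes PTGDS, and was 2 or 3 under every other alternative run. With the replicate number as a block, 5515 genes were raised and 5435 lowered, against 5638 and 5570 without it. The block changed no call of a neighbour or relative named here. Calls of the marker genes named here were not examined under the alternatives. Over 46 tested neighbours and relatives, 571 of 592 alternative values kept their direction and call, 19 lost the call, 2 gained one and 0 reversed. Depth limits all of these counts, since 0 reads over the untreated group allow a level of up to 0.0411 CPM.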
